A study of Saccharomyces cerevisiae with 9 samples.

Results

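The mitochondrial chaperones described here are the products of 7 genes of the yeast Saccharomyces cerevisiae, HSP78, HSP60, HSP10, SSC1, ECM10, MDJ1 and MGE1. They were taken by gene name from the 5449 S. cerevisiae genes on a single-colour microarray, each through its 1 probe set. All 7 were on the array, and 6 of them were among the 4359 genes tested. ECM10 lay below the level filter, which removed the 20% of genes with the lowest mean. The question was what succinic acid, an organic acid that cells also make in their mitochondria, does to gene expression in yeast. The 9 arrays cover the strains KF7, NBRC1958 and NBRC2018, each grown with 0, 20 or 60 g/L succinic acid. All cultures were in YPD, a rich glucose medium, at 35 °C and 200 rpm for 6 hours, so the controls without acid share that temperature. No allele or other agent is named in the labels.

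Most mitochondrial proteins are made in the cytosol and cross the mitochondrial membranes unfolded. In the matrix the Hsp70 protein Ssc1 pulls them in and folds them, with the J protein Mdj1 to start its ATP cycle and Mge1 to exchange its nucleotide. The chaperonin Hsp60 and its lid Hsp10 enclose and fold many of the imported proteins, and Hsp78, a relative of the cytosolic Hsp104, takes aggregates apart. Ecm10 is a close paralog of Ssc1. Several of these genes, HSP78, HSP60, SSC1 and MDJ1 among them, are known as heat shock genes of yeast.

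Each strain had a single array at each dose. A dose was therefore replicated over 3 strains, and a strain over 3 doses. Each array holds a different combination of strain and dose, and no combination was repeated. The p-values of the dose and strain comparisons therefore set a mean difference against the spread of the strains around a common dose response. That spread also holds culture and array noise, which cannot be told apart from it. Signals are the deposited linear intensities in arbitrary units, and differences are on the scale of log2(signal + 16). The median signal over S. cerevisiae genes was 294 to 311 on the 9 arrays, and all 7 chaperone genes lay above the background of other-organism probe sets on 9 of 9 arrays. The NBRC1958 array at 60 g/L stood somewhat apart from the rest. Its median correlation with the other arrays was 0.891, against 0.925 to 0.942 for the other arrays, so results that change with it left out are named below. The RNA came from whole cultures, in which a change in cell makeup and a change in RNA per cell cannot be told apart.

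At 60 against 0 g/L the disaggregase gene HSP78 and the J protein gene MDJ1 rose, and none of the 6 tested genes was called lower. HSP78 rose 4.58-fold and MDJ1 1.95-fold. The Hsp70 gene SSC1, the chaperonin genes HSP60 and HSP10 and the exchange factor gene MGE1 did not pass the test. Thus 2 of the 6 tested genes were called, both higher. Of all 4359 tested genes 22.8% were called in this comparison, made up of 8.67% called higher and 14.2% called lower. The share of called genes was 4.98% with NBRC1958 at 0 g/L left out. The median log2 difference of the 6 genes was 0.36, beside -0.05 over all genes tested.

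**Figure D1:**
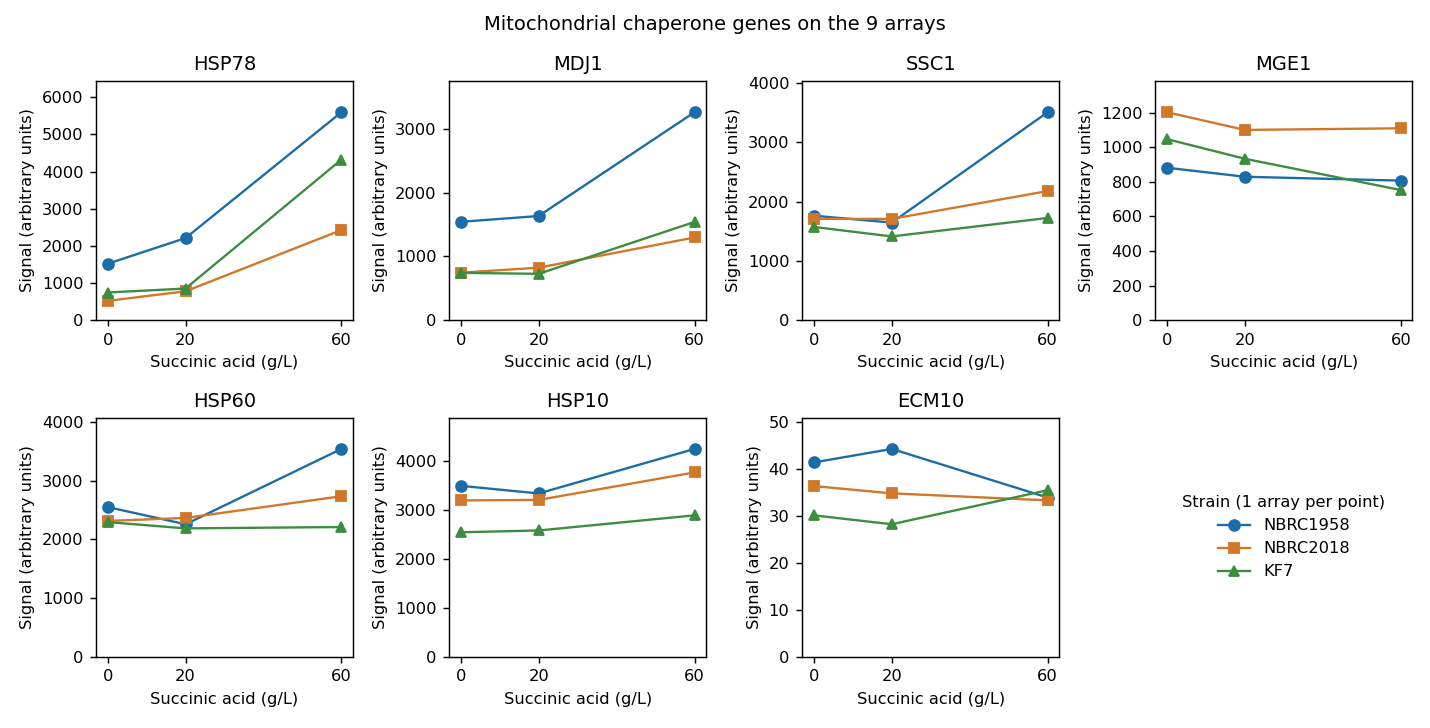
Signal in arbitrary units (vertical axis, linear and from 0, with a scale for each gene) against succinic acid in g/L for the 7 mitochondrial chaperone genes, with 1 point per array and lines joining the arrays of a strain. HSP78 and MDJ1 are highest at 60 g/L in every strain, SSC1 and HSP60 stand highest on the NBRC1958 array at 60 g/L, and ECM10 stays between 28.2 and 44.2.

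HSP78 encodes the matrix disaggregase. In NBRC1958 its signal was 1516, 2209 and 5598 at 0, 20 and 60 g/L. In NBRC2018 it was 517, 775 and 2425, and in KF7 it was 743, 850 and 4323. The signal rose with each step of dose in all 3 strains, and the lowest array at 60 g/L lay above the highest at 0 and at 20 g/L. HSP78 alone among the 6 tested genes had groups that did not overlap at 60 against 0 g/L. Of all tested genes 7.36% were higher without overlap. The mean was 925 ± 523 at 0 g/L and 4115 ± 1597 at 60 g/L (SD, n = 3). The log2 difference was 2.19 with a standard error of 0.170 (95% interval 1.80 to 2.59, limma adjusted p = 0.00048). By strain it ran from 1.87 in NBRC1958 through 2.19 in NBRC2018 to 2.52 in KF7. The call held without each of the 9 arrays in turn, with values from 1.97 to 2.38. Without strain in the model HSP78 did not pass, with an adjusted p of 0.070 at the same difference. In that fit 1.51% of all tested genes were called.

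MDJ1 encodes the J protein that starts the ATP cycle of Ssc1. Its signal in NBRC1958 was 1541, 1632 and 3260 at the 3 doses. In NBRC2018 it was 743, 822 and 1296, and in KF7 it was 741, 725 and 1539. Each strain was highest at 60 g/L, but the 0 g/L array of NBRC1958 lay above the 60 g/L arrays of both other strains, so the doses overlapped. The log2 difference at 60 against 0 g/L was 0.97 with a standard error of 0.104 (95% interval 0.73 to 1.21, limma adjusted p = 0.0020). It was 1.07 in NBRC1958, 0.79 in NBRC2018 and 1.04 in KF7. Leaving out any 1 array kept the call, with values from 0.91 to 1.08. Without strain in the model the adjusted p was 0.25.

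SSC1 encodes the essential matrix Hsp70, which both draws proteins through the import channel and folds them. Its signal was 1761, 1645 and 3507 in NBRC1958. It was 1707, 1707 and 2177 in NBRC2018, where the deposited values at 0 and 20 g/L are identical, and 1571, 1411 and 1723 in KF7. The NBRC1958 array at 60 g/L stood well above the other 8, and the KF7 array at 60 g/L lay below the NBRC1958 array at 0 g/L. The log2 difference at 60 against 0 g/L was 0.49 with a standard error of 0.169 (adjusted p = 0.069), from 0.99 in NBRC1958 to 0.35 in NBRC2018 and 0.13 in KF7. It was 0.24 (adjusted p = 0.14) when the NBRC1958 array at 60 g/L was left out. It was 0.65 and passed (adjusted p = 0.038) when the KF7 array at that dose was left out.

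MGE1, the nucleotide exchange factor of Ssc1, had negative differences. Its signal was 881, 829 and 807 in NBRC1958. It was 1203, 1100 and 1110 in NBRC2018, and 1047, 933 and 752 in KF7. In every strain the 60 g/L array was below the 0 g/L array, and the doses overlapped across strains. The log2 difference was -0.24 (95% interval -0.47 to -0.0028), and it did not pass over all genes (adjusted p = 0.12). By strain it was -0.13 in NBRC1958, -0.11 in NBRC2018 and -0.47 in KF7, and with KF7 at 60 g/L left out it was -0.13 (adjusted p = 0.36). MGE1 and MDJ1, the partners of Ssc1 in its folding cycle, therefore had differences of opposite sign in each strain, although only that of MDJ1 passed the test.

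ECM10, the paralog of SSC1, gave signals of 41.3, 44.2 and 33.8 in NBRC1958. They were 36.3, 34.7 and 33.3 in NBRC2018 and 30.1, 28.2 and 35.4 in KF7. All 9 values lay above the other-organism background of 14.7 to 15.9, and the doses overlapped. In a fit with no level filter the log2 difference at 60 against 0 g/L was -0.04 with a standard error of 0.107 (adjusted p = 0.80). ECM10 and SSC1 are similar in sequence, and whether the ECM10 probe set also reads SSC1 transcripts was not tested.

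Neither chaperonin gene passed the test. HSP60, the barrel of the chaperonin, gave 2549, 2256 and 3539 in NBRC1958. It gave 2313, 2364 and 2734 in NBRC2018, and 2293, 2186 and 2209 in KF7. As with SSC1, the NBRC1958 array at 60 g/L was the highest, and the KF7 array at 60 g/L lay below the NBRC1958 array at 0 g/L. Unlike for SSC1, the KF7 array at 60 g/L also lay below the KF7 array at 0 g/L. The log2 difference at 60 against 0 g/L was 0.22 with a 95% interval of -0.08 to 0.52 (adjusted p = 0.24). With NBRC1958 at 60 g/L left out it was 0.067 (adjusted p = 0.71), and with KF7 at 60 g/L left out it was 0.36 (adjusted p = 0.078).

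HSP10, the lid of the chaperonin, gave 3491, 3335 and 4244 in NBRC1958. It gave 3193, 3203 and 3765 in NBRC2018, and 2542, 2579 and 2888 in KF7. The 60 g/L array was the highest of each strain, but the KF7 array at 60 g/L lay below the other strains at 0 g/L. The log2 difference was 0.23 with a standard error of 0.0837 (95% interval 0.04 to 0.43, adjusted p = 0.077). The 3 strains lay close together at 0.28, 0.24 and 0.18 for NBRC1958, NBRC2018 and KF7. With an intensity trend in the variance HSP10 passed, with an adjusted p of 0.037 at the same difference.

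**Figure D2:**
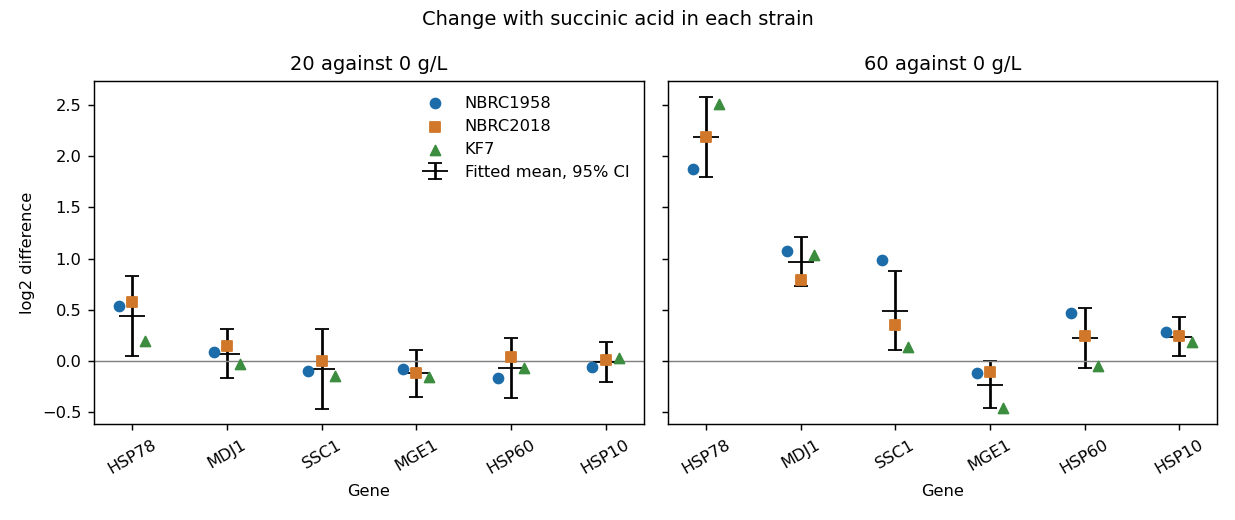
Difference on the log2(signal + 16) scale at 20 against 0 g/L (left) and 60 against 0 g/L (right) for the 6 tested genes, with a coloured point for each strain and the fitted mean with its 95% interval in black. At 60 g/L the intervals of HSP78 (1.80 to 2.59) and MDJ1 (0.73 to 1.21) lie farthest from 0. Those of SSC1, MGE1 and HSP10 also exclude 0, but their p-values did not pass after adjustment over all genes. The intervals themselves are not adjusted.

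The lower dose was tested by setting 20 against 0 g/L. None of the 6 tested genes passed, where 0.0229% of all tested genes were called (limma). At an unadjusted p under 0.05 HSP78 was the only one of the 6, and 2.25% of all tested genes were higher at that level. HSP78 had a log2 difference of 0.43 with a standard error of 0.170 (95% interval 0.04 to 0.82, adjusted p = 0.95). Its signal was higher at 20 than at 0 g/L in all 3 strains, by 0.54 and 0.57 in NBRC1958 and NBRC2018 and by 0.19 in KF7. The other 5 genes lay between -0.13 for MGE1 and 0.07 for MDJ1. The interval for MDJ1 was -0.18 to 0.31, and its value ran from -0.02 to 0.13 with each array left out in turn.

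Between 20 and 60 g/L, HSP78 and MDJ1 rose again as the 2 called genes of 6, where 15.9% of all tested genes were called and 5.78% were called higher. The share called was 2.94% with NBRC1958 at 20 g/L left out. HSP78 differed by 1.76 (adjusted p = 0.0023) and MDJ1 by 0.90 (adjusted p = 0.0043). HSP78 and SSC1 did not overlap between these doses, which 6.88% of all tested genes also showed in the higher direction. For SSC1 this held only just, with 1723 in KF7 at 60 g/L and 1707 in NBRC2018 at 20 g/L. SSC1 had a log2 difference of 0.57 and an adjusted p of 0.055. With NBRC1958 at 60 g/L left out it was 0.32 (adjusted p = 0.084), and with NBRC1958 at 20 g/L left out 0.44 (adjusted p = 0.22). It passed with quantile normalization (0.60, adjusted p = 0.047), with an intensity trend (adjusted p = 0.049) and when the KF7 array at 60 g/L was left out (0.73, adjusted p = 0.034). MDJ1 did not pass without NBRC1958 (0.86, adjusted p = 0.056), in a fit where 1.26% of all tested genes were called. The same 60 g/L arrays enter both comparisons, so they are not separate evidence. Over the 3 doses together the limma F test called HSP78 (adjusted p = 0.0011) and MDJ1 (adjusted p = 0.0036), where 16.6% of all tested genes were called.

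The signal at 20 g/L was also set against a straight line on the log2 scale from 0 to 60 g/L. All 6 genes lay below the line, by sizes from -0.05 for MGE1 to -0.30 for HSP78. Of all tested genes 40.5% lay below it. With each array left out in turn the 6 genes still lay below it, HSP78 by -0.43 to -0.10. None of the 4359 genes passed (limma), and 6.13% had an unadjusted p under 0.05. MDJ1 was among the latter, at -0.26 with an adjusted p of 0.76. These tests do not separate a gradual response to dose from one that comes mainly between 20 and 60 g/L.

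The strains were compared over the 3 doses. MDJ1 and HSP78 were higher in NBRC1958 than in either other strain, HSP10 was lower in KF7 than in either other strain, and MGE1 was higher in NBRC2018 than in NBRC1958. In strain comparisons a transcript level and a difference between strains in the sequence under the probes cannot be told apart. For KF7 against NBRC1958, 3 of the 6 tested genes were called, all lower in KF7, where 19.1% of all tested genes were called and 9.66% were called lower. For NBRC2018 against NBRC1958, 2 were called lower and 1 higher, where 27.9% of all tested genes were called, 11.5% lower and 16.3% higher. For KF7 against NBRC2018 only HSP10 was called, lower in KF7, where 16.4% of all tested genes were called and 9.29% were called lower. These shares also rest on single arrays. Leaving out NBRC1958 at 20 g/L took the genes called from 833 to 302 for KF7 against NBRC1958 and from 1214 to 395 for NBRC2018 against NBRC1958, and leaving out KF7 at 0 g/L took those for KF7 against NBRC2018 from 716 to 241.

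MDJ1 was set apart by strain at every dose. Its mean signal over doses was 2144 ± 967 in NBRC1958, 954 ± 299 in NBRC2018 and 1002 ± 465 in KF7 (SD over 3 doses). KF7 against NBRC1958 gave a log2 difference of -1.09 (adjusted p = 0.00091), with -1.04, -1.15 and -1.08 at 0, 20 and 60 g/L. NBRC2018 against NBRC1958 gave -1.11 (adjusted p = 0.0011), with -1.04, -0.98 and -1.32 at the same doses. KF7 against NBRC2018 gave 0.02 with a 95% interval of -0.22 to 0.26. Of the sum of squares of MDJ1, 57.3% lay between strains and 41.4% between doses. The 3 arrays of NBRC1958 lay above all arrays of both other strains, but only just, with its lowest signal at 1541 and the highest of KF7 at 1539. Of all tested genes 12.6% were lower without overlap in KF7 and 13.1% in NBRC2018.

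HSP78 showed the same order with a wider spread. NBRC2018 against NBRC1958 gave -1.40 (adjusted p = 0.0027), and KF7 against NBRC1958 gave -0.92 (adjusted p = 0.011). The difference between KF7 and NBRC1958 was -1.01 at 0 g/L, -1.36 at 20 g/L and -0.37 at 60 g/L. This call was lost on leaving out NBRC1958 at 0 or at 20 g/L, both with an adjusted p of 0.057. KF7 against NBRC2018 was 0.49 (adjusted p = 0.086), and it passed on leaving out NBRC1958 at 60 g/L (adjusted p = 0.042) or KF7 at 20 g/L (0.69, adjusted p = 0.039). With KF7 at 60 g/L left out it was 0.27 (adjusted p = 0.27). For HSP78, dose accounted for 70.9% of the sum of squares and strain for 26.7%.

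HSP10 was lowest in KF7. Its mean over doses was 2670 ± 190 in KF7, 3387 ± 327 in NBRC2018 and 3690 ± 486 in NBRC1958. The KF7 arrays lay below all arrays of both other strains, which 12.6% of all tested genes showed against NBRC1958 and 21.0% against NBRC2018. The log2 difference was -0.46 against NBRC1958 (adjusted p = 0.010) and -0.34 against NBRC2018 (adjusted p = 0.033). The call against NBRC2018 was lost when any 1 of 8 of the 9 arrays was left out, with adjusted p up to 0.11, and it held on leaving out NBRC1958 at 60 g/L. Of the sum of squares of HSP10, 73.2% lay between strains.

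MGE1 ran the other way and was highest in NBRC2018. NBRC2018 against NBRC1958 gave 0.43 (adjusted p = 0.019), with 0.44, 0.40 and 0.45 at 0, 20 and 60 g/L. The groups did not overlap, as for 21.4% of all tested genes in that direction. The call was lost without any 1 of the NBRC1958 arrays at 0 or 20 g/L or the 3 NBRC2018 arrays, with adjusted p between 0.052 and 0.089. KF7 against NBRC2018 was -0.33 without overlap and did not pass (adjusted p = 0.063). HSP60 and SSC1 passed in none of the 3 strain comparisons, and their log2 differences ran from -0.47 to -0.14. The differences from NBRC1958 depend strongly on its array at 60 g/L. With NBRC1958 at 60 g/L left out, KF7 against NBRC1958 was -0.21 for SSC1 and -0.14 for HSP60, and NBRC2018 against NBRC1958 turned to 0.03 for SSC1 and 0.0042 for HSP60. KF7 against NBRC2018 was negative at each dose. At 0, 20 and 60 g/L it was -0.12, -0.27 and -0.33 for SSC1 and -0.01, -0.11 and -0.31 for HSP60. With KF7 at 60 g/L left out the fit, which the NBRC1958 arrays also enter, gave -0.08 for SSC1 and -0.0063 for HSP60. HSP60, like MGE1, was lower without overlap in KF7 than in NBRC2018, as were 21.0% of all tested genes. For ECM10 the fit with no level filter gave -0.24, -0.11 and -0.13 for KF7 against NBRC1958, KF7 against NBRC2018 and NBRC2018 against NBRC1958, none past the test.

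**Figure D3:**
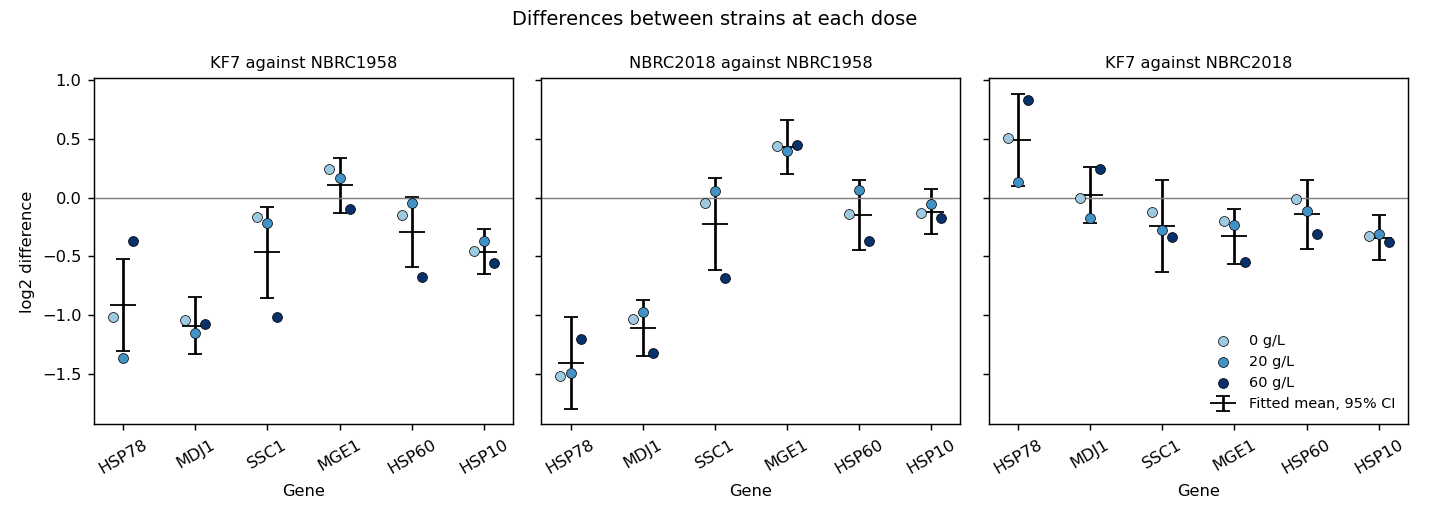
Difference between strains on the log2(signal + 16) scale for the 6 tested genes, with a point for each dose and the fitted mean with its 95% interval in black. The 3 doses of MDJ1 lie between -1.15 and -1.04 for KF7 against NBRC1958, whereas for SSC1 and HSP60 the 60 g/L point lies lowest in both comparisons with NBRC1958.

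Whether the response to dose differed between strains was tested with a straight line on dose in each strain. No gene of the 4359 passed, and 9.66% had an unadjusted p under 0.05 (limma F test). Among the chaperone genes SSC1 came nearest, with an adjusted p of 0.53. Expressed per 60 g/L on the log2 scale, its slopes in NBRC1958, NBRC2018 and KF7 were 1.08, 0.37 and 0.17, each with a standard error of 0.246. The slope in NBRC1958 passed (adjusted p = 0.037) and the others did not. It rests on the 60 g/L array, since SSC1 in NBRC1958 differed by -0.10 between 0 and 20 g/L. The difference between KF7 and NBRC1958 was -0.90 with a standard error of 0.347 (adjusted p = 0.46). HSP78 had slopes of 1.89, 2.23 and 2.65 in NBRC1958, NBRC2018 and KF7, each with a standard error of 0.318, which passed within each strain (adjusted p = 0.024, 0.0499 and 0.030). Of all tested genes 6.47%, 0.298% and 0.734% had a slope called as rising in NBRC1958, NBRC2018 and KF7. The slopes of HSP78 ran opposite to those of SSC1 in strain order, and the difference between KF7 and NBRC1958 was 0.76 with a standard error of 0.450 (adjusted p = 0.56). For MDJ1 the slopes were 1.13, 0.81 and 1.12, each with a standard error of 0.245. The limma adjusted p was 0.033 in NBRC1958, which passed, 0.15 in NBRC2018 and 0.089 in KF7. The adjustment was made separately for each strain, and the unadjusted p was 0.0027 in NBRC1958 and 0.0029 in KF7.

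Among themselves HSP60, HSP10 and SSC1 moved alike over the 9 arrays, which share strain and dose, as did HSP78 and MDJ1, with no sharp line between them. Pearson's r on the log2 scale was 0.970 for HSP60 and SSC1 and 0.913 for HSP78 and MDJ1. Without the NBRC1958 array at 60 g/L these were 0.857 and 0.881 over 8 arrays. HSP10 gave 0.841 with SSC1 and 0.836 with HSP60, and 0.826 and 0.777 over the 8 arrays. SSC1 with MDJ1 was 0.799, and 0.470 over the 8 arrays. With each strain's mean removed, HSP10 gave 0.941 with MDJ1, 0.916 with SSC1 and 0.879 with HSP78. HSP78 with HSP60 gave 0.576, and 0.169 without that array. MGE1 ran against HSP78 (r = -0.768) and MDJ1 (r = -0.710), and without that array these were -0.729 and -0.689. These values describe 9 arrays and carry no test.

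The genes outside the family whose pattern was most like that of a chaperone gene were found by the same r over the 9 arrays and all tested genes. For HSP78 they were YIR016W (0.996), for which no function is given here, the cytosolic J protein gene APJ1 (0.991) and the mitochondrial gene MIX17 (0.985). For MDJ1 they were the cytosolic Hsp110 gene SSE2 (0.988), PNS1 (0.974) and ECM30 (0.972). SSC1 was most like SNF11 (0.982), a subunit of the chromatin remodeller SWI/SNF, MSC6 (0.981) and YDR249C (0.976). HSP60 was most like the mitochondrial ribosomal protein gene RSM10 (0.977), the methionine salvage gene ADI1 (0.958) and MSC6 (0.953). HSP10 came nearest to the isomaltase gene IMA1 (0.984), the condensin gene SMC2 (0.978) and PET54 (0.967). MGE1 came nearest to ERV14 (0.951), a cargo receptor of secretion, the histidine gene HIS1 (0.942) and TOM71 (0.941), an import receptor. Without NBRC1958 at 60 g/L the values ran from 0.789 to 0.893 for the 3 genes named with HSP60 and from 0.860 to 0.914 for those named with SSC1. For the other 4 chaperone genes they stayed between 0.931 and 0.995. The genes were picked as the nearest of 4359 over 9 arrays, so the values describe the patterns and no shared role is read from them.

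Lists of related genes set the chaperones in their surroundings at 60 against 0 g/L. For these lists, rose and fell mean called higher and called lower. The counts stand beside 8.67% called higher and 14.2% called lower among all tested genes. No other matrix Hsp70 partner or folding factor rose. Of 13 tested genes of that list 5 fell, 8 did not pass and none rose, with a median of -0.21. JAC1, the J protein of iron-sulfur cluster assembly, fell by 0.76, and its Hsp70 SSQ1 fell by 0.38. TIM44, which ties Ssc1 to the import channel, fell by 0.51, and ZIM17, which keeps Ssc1 soluble, fell by 0.55. Their limma adjusted p ran from 0.0048 to 0.026.

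Mitochondrial proteases and prohibitins likewise held no gene that rose. Of 17 tested, 4 fell and 13 did not pass, with a median of -0.06. These were MAS2, a subunit of the processing peptidase (-0.70), the rhomboid protease gene PCP1 (-0.50), the aminopeptidase gene ICP55 (-0.46) and the prohibitin gene PHB2 (-0.33). Of 20 tested genes of protein import, 6 fell, 1 rose and 13 did not pass, with a median of -0.12. The outer membrane channel genes SAM50 and TOM40 fell by 0.59 and 0.41 and the small chaperone gene TIM13 by 0.38, while TIM9, a chaperone of the intermembrane space, rose by 0.56. Among 21 abundant mitochondrial proteins such as citric acid cycle enzymes and ATP synthase subunits, only the malate dehydrogenase gene MDH1 passed, at -0.45, and the median was -0.12.

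Among the cytosolic counterparts of the chaperones the Hsp70 and J protein genes held most of those that rose. Of 18 tested, 9 rose, 1 fell and 8 did not pass, with a median of 0.53. The J protein genes APJ1 and SIS1 rose by 2.83 and 1.34, the Hsp70 gene SSA4 by 2.80 and FES1, an Hsp70 exchange factor, by 1.96. HSP104, the cytosolic relative of HSP78, is named for that role and outside the rule. It rose by 1.01. The differences in NBRC1958, NBRC2018 and KF7 were 0.73, 1.33 and 0.97, beside 1.87, 2.19 and 2.52 for HSP78. The difference was larger for HSP78 in each strain, and a test of it was not made. None of the genes of the cytosolic chaperonin CCT on the list rose, and CCT3 was the 1 that fell (-0.37, adjusted p = 0.031). It was singled out with its values in view.

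Among 10 tested regulators, 2 rose and 3 fell. HAP2 (-1.14) and HAP5 (-0.72), subunits of the activator of respiratory genes, and the stress factor gene MSN4 (-0.76) fell. Its relative MSN2 rose by 0.53. HSF1, which encodes the heat shock factor, had a log2 difference of 0.13 with a standard error of 0.0817 (adjusted p = 0.25) and is named for its role, outside the rule. HAP1, also singled out with its values in view, was the other gene that rose (0.49, adjusted p = 0.043). At 20 against 0 g/L no gene of any of these lists passed.

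**Figure D4:**
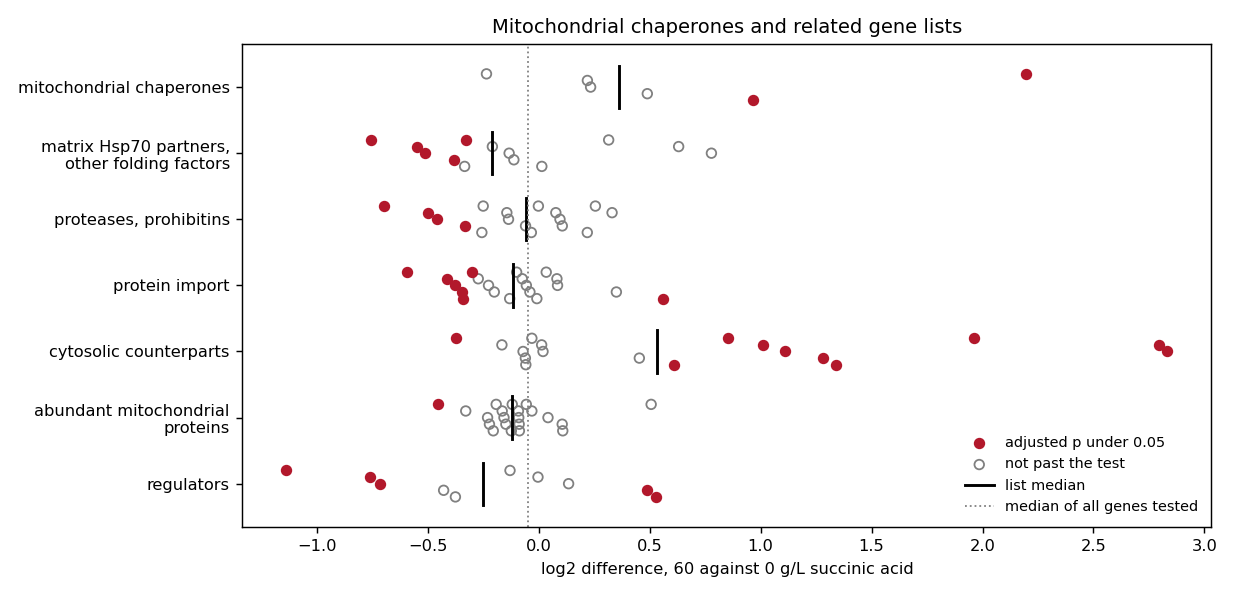
Log2 difference at 60 against 0 g/L (horizontal axis) for each tested gene of the mitochondrial chaperones and 6 related lists, with filled red points for genes with an adjusted p under 0.05, open points for the others, a black bar at each list's median and a dotted line at the median of all genes tested (-0.05). The medians are 0.36 for the mitochondrial chaperones and 0.53 for the cytosolic counterparts, and those of the other 5 lists lie between -0.25 and -0.06.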

How the data were processed

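The deposited values are linear intensities that the authors had already summarized to 1 value per probe set, on a like level on all arrays. Scanner, background correction and normalization are not given in the sources used here. Trizol was used for total RNA and biotin as the label of the cRNA, per the labels' protocols. A probe annotation from 2016 named the genes, and a reference table of S. cerevisiae updated the symbols. Of 10928 probe sets, 5498 stood for 1 S. cerevisiae gene each and 1746 for 1 gene of another organism, which served as background (95th percentile). The probe set with the highest mean represented a gene. The level filter was a mean of log2(value + 16) above its 20th percentile, a signal of 118.

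For 4359 genes limma 3.58.1 (R 4.3.3) modelled log2(value + 16), with strain and dose as additive factors (4 residual degrees of freedom). Strain is a block because arrays at different doses share a strain per the labels. A second model gave each strain its own straight line on dose and left 3 degrees of freedom. P-values were adjusted over all tested genes by Benjamini-Hochberg, with a threshold of 0.05. The fit was tested on simulated data. The number of arrays limits the precision.

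The members and the lists were chosen with earlier results of these data known. The 7 chaperone genes are always named. Other lists name up to 4 called genes by size at 60 against 0 g/L, and likeness names 3 genes per tested member. Correlations without the NBRC1958 array at 60 g/L were added after seeing the data. Alternatives are given in the closing section.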

Additional observations from a re-analysis of the deposited data

How the results depend on the processing

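In up to 24 alternatives per comparison no call changed sign, and HSP78 and MDJ1 at 60 against 0 g/L lost their calls only with no replicate block. Leaving strain out of the model gave 0 called chaperone genes in place of 2. This held at 60 against 0 g/L, at 60 against 20 g/L and for any dose. Of all tested genes 1.51%, 0.0918% and 0.184% were called in these fits. The block is the strain, which same-strain arrays share by design, and the calls at 60 g/L rest on it. Leaving dose out of the model gave 0 in each strain comparison. With dose in the model the counts were 3 for KF7 and for NBRC2018 against NBRC1958 and 1 for KF7 against NBRC2018. Without dose 5.23%, 9.31% and 5.78% of all tested genes were called, in the same order. With an intensity trend 4 genes passed at 60 against 20 g/L. Without NBRC1958, 1 passed at 60 against 20 g/L and 1 for any dose. For KF7 against NBRC1958, 1 passed without 0 g/L and 1 without 20 g/L. For KF7 against NBRC2018, 0 passed with only the arrays compared and without each dose.

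Without each array in turn the counts of called chaperone genes ran from 2 to 3 at 60 against 0 and 60 against 20 g/L. At 20 against 0 g/L they stayed at 0. They ran from 2 to 3 for KF7 and for NBRC2018 against NBRC1958, and from 0 to 2 for KF7 against NBRC2018. Over all tested genes the counts in these dose comparisons ran from 217 to 976, 128 to 714 and 0 to 1. In the strain comparisons, in the same order, they ran from 302 to 895, 395 to 1301 and 241 to 919. The count over all genes for any dose, 724, was 260 with NBRC2018 at 60 g/L left out. The count at 60 against 0 g/L, 995, was 217 when NBRC1958 at 0 g/L was left out, and 98 without that strain. It was 472 with only the arrays compared, and quantile normalization moved the median of all genes from -0.05 to -0.02. Some of these fits hold fewer arrays, and the cause of each change was not tested.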

Other observations

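The iron-sulfur scaffold gene ISU1 and the J protein gene JID1, both mitochondrial, had differences at 60 against 0 g/L that did not pass the test but spread widely between strains. They were chosen after their values were seen. ISU1 differed by 1.61 in NBRC1958, 0.83 in NBRC2018 and -0.11 in KF7 on the log2 scale (mean 0.78, adjusted p = 0.071). JID1 differed by 1.09, 0.93 and -0.13 in the same order (mean 0.63, adjusted p = 0.066). In the test of slopes between strains neither gene passed.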
